A study of Mus musculus with 15 samples.

Results

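The 10 genes described here encode core cardiac transcription factors: the GATA zinc-finger proteins Gata4 and Gata6, the homeodomain proteins Nkx2-5 and Irx4, the T-box proteins Tbx5 and Tbx20, the MADS-box proteins Mef2a, Mef2c and Mef2d, and the basic helix-loop-helix protein Hand2. They were taken by name from the 40174 gene symbols of the deposited count tables, not by their values, and all 10 passed the filter on low counts that left 17588 genes in the tests. Total RNA had been sequenced from the left ventricle of C57BL/6 mice aged 2 months. RBM20 is a muscle splicing regulator, and both alleles change a serine in its RS-rich stretch. G-line HOM ventricles carried the S639G change on both copies of Rbm20 (genotype labelled Rbm20 S639G -/-) and G-line HET ventricles on 1 copy (S639G +/-), with 3 libraries each. A-line HOM ventricles carried S637A on both copies (S637A -/-), and A-line HET ventricles carried it on 1 copy (S637A +/-). WT ventricles of the same background served as the control for both lines. The labels describe no treatment and no other allele. How the alleles were made is not stated, and nothing says that replicate libraries are separate mice, so the p-values measure only the spread between these samples.

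Of the 15 libraries named in the labels, 13 were distinct. The counts of A-line HOM libraries 2 and 3 equalled those of WT libraries 2 and 3 at all 40174 symbols. They were used once, as WT, which left 1 library for A-line HOM and 3 for each other group. The labels do not settle which name is right, so every comparison with WT or with A-line HOM rests on that choice. Total counts were 20324529 to 29436407 in G-line HOM, 23714906 to 28121438 in G-line HET, 17507813 in A-line HOM, 12959087 to 17448328 in A-line HET and 25279202 to 26549906 in WT libraries. Myl2, the ventricular light chain, lay between 4089 and 7081 CPM (the usual depth-scaled count, here with TMM factors) in every library, but 3 libraries also held atrial transcripts. The atrial light chain Myl7 was at 524 CPM in WT library 2, 240.1 CPM in A-line HET library 3 and 45.8 CPM in G-line HOM library 1, and at most 3.43 CPM in the other 10. Another atrial light chain, Myl4, was at 522 CPM, 239 CPM and 68.8 CPM in the same 3 libraries and at most 19.3 CPM in the others. The clock gene Arntl stood at 29.0 CPM in A-line HET library 2 and 24.6 CPM in G-line HOM library 1, against at most 5.28 CPM elsewhere. Mitochondrial ribosomal RNA took 10.8 to 13.5% of the counts in G-line HOM, 15.4 to 16.7% in G-line HET, 15.1% in A-line HOM, 13.2 to 17.1% in A-line HET and 20.2 to 23.4% in WT libraries. It was 20.2% and 20.5% in the shared pair and 23.4% in WT library 1. Hopx averaged 137.7 ± 13.6 CPM (SD) over WT library 1 and the pair, and A-line HOM library 1 differed from them by a log2 of -5.95. By these 2 measures the pair lay nearer to WT library 1 than to A-line HOM library 1, which does not prove its name. The part of these features in the results below was not tested.

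These factors bind one another and the same enhancers, and together they set the contractile, ion channel and natriuretic peptide genes of the heart muscle cell. TBX5, GATA4 and NKX2-5 are the classical trio of human septal defect genes. TBX20 keeps the adult mouse ventricle working and can act as a repressor. MEF2 proteins, which answer to calcium signalling through class II histone deacetylases, and IRX4, a ventricle-restricted homeodomain factor, complete the set.

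Per kilobase of exon, Mef2a and Gata4 were the most abundant of the 10 in WT ventricle. Mef2a had 16.1 ± 0.41 and Gata4 15.9 ± 1.12 CPM per kb (SD, n = 3), and their libraries overlapped. Mef2d followed at 13.4 ± 1.21, Tbx20 at 12.8 ± 1.21 and Mef2c at 12.1 ± 0.87 CPM per kb. These 3 overlapped with one another and lay below every Gata4 library. After a gap came Irx4 at 6.12 ± 1.11, Gata6 at 4.81 ± 0.45, Tbx5 at 4.52 ± 1.05, Hand2 at 3.94 ± 1.21 and Nkx2-5 at 2.57 ± 0.46 CPM per kb. Within that lower block each gene overlapped with the next, so the order inside it is not resolved. The raw counts behind the lowest genes were 60 to 258 per library for Nkx2-5 and 104 to 361 for Hand2, against 2591 to 12760 for Tbx20.

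**Figure D1:**
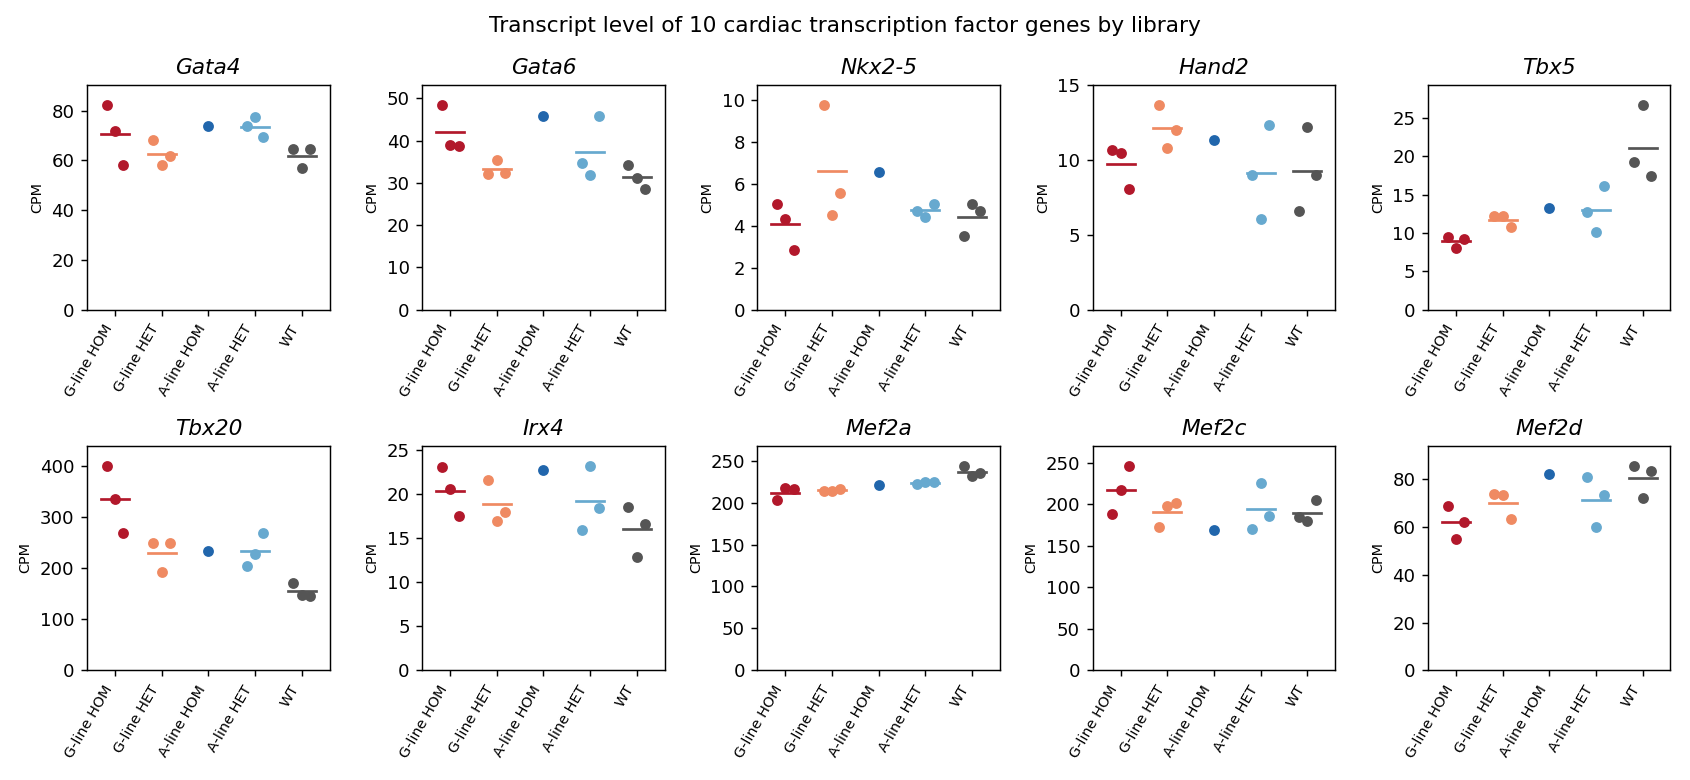
TMM-normalised CPM (y axis, from 0) of each gene in each of the 13 distinct libraries, by group on the x axis; points are libraries and horizontal bars are group means, with 1 library and no bar for A-line HOM. Tbx20 lay above and Tbx5 below the WT range in all 10 mutant libraries, while Nkx2-5, Hand2, Mef2c and Irx4 overlapped with WT in most panels.

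The 2 T-box genes moved in opposite directions. Tbx20 was higher and Tbx5 lower in G-line HOM, G-line HET and A-line HET ventricles than in WT, and both changes passed the test in each of these comparisons. These comparisons share the same 3 WT libraries and are therefore not independent of each other.

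Tbx20, which in mice is needed for adult ventricular function, stood at 399, 335 and 267 CPM in G-line HOM ventricles. It stood at 248, 192 and 248 CPM in G-line HET, at 232 CPM in the A-line HOM library, and at 204, 228 and 268 CPM in A-line HET. In WT it stood at 171, 147 and 144 CPM. Every mutant library lay above every WT library. The G-line HOM mean of 334 ± 65.8 CPM was 2.17 times the WT mean of 154 ± 14.6 CPM (SD, n = 3 each), a log2 difference of 1.12 ± 0.15 (SE, edgeR quasi-likelihood test, adjusted p = 0.000145). In G-line HET the log2 difference from WT was 0.57 ± 0.15 (adjusted p = 0.0336), and in A-line HET it was 0.60 ± 0.15 (adjusted p = 0.0260). The single A-line HOM library gave 0.59 ± 0.21 (adjusted p = 0.125), a value that borrows its error from the other groups. In bulk tissue, fewer cells of a type and less RNA per cell cannot be told apart, so none of these levels is a level per heart muscle cell.

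The Tbx20 call for G-line HOM held without any single library and without the Myl7-high libraries (log2 0.94, adjusted p = 0.00160), and was lost when the shared pair was counted as A-line HOM (log2 0.97, adjusted p = 0.0700). The calls at 1 mutant copy were more fragile. For G-line HET, Tbx20 missed the threshold without G-line HET library 1 (adjusted p = 0.144) or 3 (0.116), without WT library 1 (0.0607), 2 (0.0876) or 3 (0.126), and without G-line HOM library 2 (0.0502). For A-line HET, Tbx20 missed it without A-line HET library 2 (adjusted p = 0.0698) or 3 (0.103), without WT library 2 (0.0738) or 3 (0.114), and without the Myl7-high libraries (0.126). Under the 3 choices for the shared pair (named A-line HOM, dropped, or entered under both names) both calls were lost, with adjusted p of 0.106 to 0.544 for G-line HET and 0.107 to 0.537 for A-line HET. The direction was the same in all of these fits, with log2 differences of 0.42 to 0.69 over all alternatives for both heterozygous groups.

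The 250 bases before the RefSeq start of Tbx20 (GRCm38.p6, chr9:24774304-24774553, minus strand) are shown because Tbx20 was the gene that rose most among the 10. Capitals would mark a match on either strand to the letters of a GATA site (GATAA, found in 22.6% of 32841 mouse promoter windows of this length), an NKX2-5 site (AAGTG, 40.7%), a T-box site (AGGTGT, 11.8%), a MEF2 site (CTA and TAG with 4 bases between them, 3.2%) or a basic helix-loop-helix E-box (CANNTG, 66.2%).
Tbx20: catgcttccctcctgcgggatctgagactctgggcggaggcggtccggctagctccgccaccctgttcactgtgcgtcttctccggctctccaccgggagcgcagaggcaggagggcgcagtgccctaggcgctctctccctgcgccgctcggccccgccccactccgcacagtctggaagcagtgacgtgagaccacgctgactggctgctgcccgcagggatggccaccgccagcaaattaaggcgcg
The window has a GC content of 68.8% and holds none of these letters. No match says only that they are absent from this window.

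Tbx5, which drives conduction and calcium-handling genes and is textbook higher in the left than in the right ventricle, ran the other way. Its level was 9.41, 8.06 and 9.25 CPM in G-line HOM ventricles. It was 12.3, 12.2 and 10.8 CPM in G-line HET, 13.3 CPM in A-line HOM, and 12.8, 10.1 and 16.2 CPM in A-line HET. In WT it was 19.3, 26.7 and 17.4 CPM. No mutant library reached the lowest WT library. The G-line HOM mean was 8.91 ± 0.74 CPM, against a WT mean of 21.1 ± 4.90 CPM, a log2 difference of -1.24 ± 0.18 (adjusted p = 0.000199). In G-line HET the log2 difference was -0.85 ± 0.18 (adjusted p = 0.00943), in A-line HET -0.70 ± 0.18 (adjusted p = 0.0267), and in the A-line HOM library -0.67 ± 0.26 (adjusted p = 0.174).

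WT library 2, which of the WT libraries held the atrial transcripts, also held the highest Tbx5 level. The other Myl7-high libraries, A-line HET library 3 (16.2 CPM) and G-line HOM library 1 (9.41 CPM), were likewise the highest of their groups. The Tbx5 call for A-line HET held without the Myl7-high libraries together. It was lost without WT library 2 alone (log2 -0.49, adjusted p = 0.105), WT library 1 (0.0540) or A-line HET library 2 (0.121). It was also lost without the Arntl-high libraries (0.117), with only the compared groups fitted (0.0898) and under the 3 choices for the shared pair (0.119 to 0.466). The G-line HOM call was made under all 25 alternatives, with log2 differences of -1.37 to -1.04 and adjusted p of at most 0.0446. The G-line HET call held without any single library and without the Myl7-high libraries (log2 -0.65, adjusted p = 0.0178), and was lost when the shared pair was named A-line HOM (0.315), dropped (0.124) or entered under both names (0.0645).

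The ratio of Tbx20 to Tbx5 counts gathered both changes. It was 28.9 to 42.4 in G-line HOM, 15.7 to 23.0 in G-line HET, 17.5 in A-line HOM, 16.0 to 22.6 in A-line HET and 5.51 to 8.84 in WT libraries. The G-line HOM range overlapped with no other group, the 3 other mutant groups overlapped with one another, and all lay above WT.

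**Figure D2:**
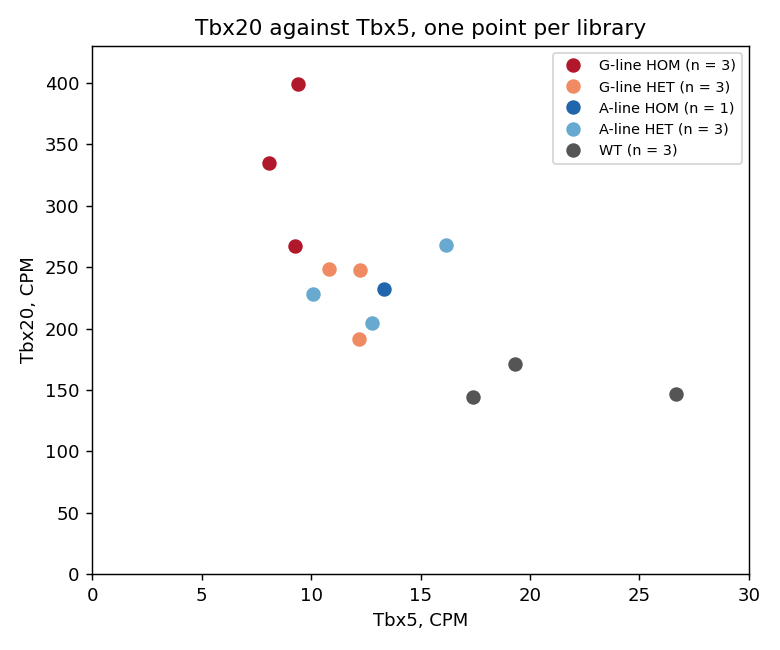
Tbx20 (y axis, CPM) against Tbx5 (x axis, CPM), 1 point for each of the 13 distinct libraries, coloured by group. WT libraries lie at the lower right (Tbx5 17.4 to 26.7 CPM), G-line HOM at the upper left (Tbx20 267 to 399 CPM), and the other 7 between them.

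Beside these changes, the summed level of 6 fibroblast markers (Col1a1, Dcn, Pdgfra, Tcf21, Lum, Gsn) was 2861 to 3436 CPM in G-line HOM, 2069 to 3486 CPM in G-line HET, 2608 CPM in A-line HOM, 2203 to 3862 CPM in A-line HET and 1356 to 2512 CPM in WT libraries. In G-line HOM 3 of the 6 were called higher than WT and none lower. Over all tested genes in this comparison 13.1% were called higher and 13.3% lower, which is the background for all marker counts given here. None of the 6 was at 0 in any library. The sum of 6 endothelial and endocardial markers was 561 to 676 CPM in G-line HOM, 484 to 597 CPM in G-line HET, 532 CPM in A-line HOM, 497 to 638.6 CPM in A-line HET and 679 to 712 CPM in WT. The sum of 8 heart muscle markers was 139941 to 146591 CPM in G-line HOM, 151921 to 156652 CPM in G-line HET, 153600 CPM in A-line HOM, 138146 to 149203 CPM in A-line HET and 124954 to 146046 CPM in WT, so that G-line HET and the A-line HOM library lay wholly above WT. Most of that sum was Ttn, so its order mainly follows that 1 gene. Ttn was at 103925 to 110990 CPM in G-line HOM, 108738 to 110432 CPM in G-line HET, 111746 CPM in A-line HOM and 78807 to 97289 CPM in WT. Myh6, the next largest, was at 15827 to 18152 CPM in G-line HOM, 21794 to 26005 CPM in G-line HET, 20787 CPM in A-line HOM and 23237 to 26119 CPM in WT. In G-line HOM against WT, 4 of these 8 were called lower and 0 higher. Also called lower were 1 of the 6 endothelial and 1 of 5 smooth muscle and pericyte markers. Of the 4 atrial markers that passed the filter on low counts, 1 (Nppa) was called higher, and none of the 5 epicardial, 5 conduction and 2 fat markers that passed the filter was called. Cardiac fibroblasts also express Tbx20, Tbx5, Gata4, Gata6 and Hand2, and the part of cell makeup in the results was not tested.

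Gata6, a zinc-finger activator that overlaps with Gata4 in function, was higher than WT at 2 copies of S639G, while Gata4 was not called. Gata6 stood at 48.4, 39.0 and 38.7 CPM in G-line HOM, 32.1, 35.5 and 32.4 CPM in G-line HET, 45.8 CPM in A-line HOM, 34.7, 31.8 and 45.7 CPM in A-line HET and 34.3, 31.2 and 28.5 CPM in WT ventricles. The 3 G-line HOM libraries and the A-line HOM library lay above all WT libraries, and the heterozygous groups overlapped with WT. The G-line HOM mean of 42.0 ± 5.50 CPM was 1.34 times the WT mean of 31.3 ± 2.90 CPM, a log2 difference of 0.42 ± 0.13 (adjusted p = 0.0268). That call was lost without G-line HOM library 1 (log2 0.31, adjusted p = 0.117), WT library 2 (0.0630) or WT library 3 (0.116), without the Myl7-high libraries (0.0795), without the Arntl-high libraries (0.0809), and with the shared pair named A-line HOM (0.507), dropped (0.381) or entered under both names (0.0786). G-line HOM library 1 and A-line HET library 3, the highest of their groups for Gata6, were both Myl7-high. They also had the highest sums of 5 epicardial and mesothelial markers, 14.9 and 12.4 CPM, with 1.21 to 5.87 CPM everywhere else. Gata6 did not follow this sum in all libraries. A-line HOM library 1, with Gata6 at 45.8 CPM, had a sum of 3.09 CPM. WT library 2 had the next highest sum, 5.87 CPM, with Gata6 at 31.2 CPM. A link between Gata6 and these markers was not tested.

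In A-line HOM the single library had a log2 difference of 0.55 ± 0.18 from WT for Gata6 (adjusted p = 0.105). This value passed the threshold when only these 2 groups were fitted (adjusted p = 0.0338). The log2 differences of the heterozygous groups were 0.09 ± 0.13 in G-line HET (adjusted p = 0.752) and 0.26 ± 0.13 in A-line HET (adjusted p = 0.277).

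The non-coding neighbour Gata6os, transcribed from the opposite strand next to Gata6, was also called in G-line HOM against WT. It stood at 21.5, 15.3 and 13.7 CPM in G-line HOM, against 9.96, 8.93 and 8.88 CPM in WT, with no overlap. Its log2 difference was 0.87 ± 0.19 (adjusted p = 0.00355), and it was also higher in G-line HOM than in G-line HET (log2 0.69 ± 0.19, adjusted p = 0.0260). The call against G-line HET was lost without any 1 of the 3 G-line HET libraries or G-line HOM library 1 or 2 (adjusted p 0.0513 to 0.111), without the Myl7-high (0.0510) or the Arntl-high libraries (0.0998), and with the shared pair as A-line HOM (0.0787). The call against WT was lost with the pair as A-line HOM (0.173) or dropped (0.122). In GENCODE M21 Gata6 shares 93 exon bases, 1.43% of its length, with the opposite-strand gene 1010001N08Rik. Whether counting used strand is not given in the sources used here, so reads of a gene and its antisense neighbour may not have been kept apart.

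Gata4, the main zinc-finger activator of heart muscle genes, stood at 82.2, 71.7 and 58.0 CPM in G-line HOM, 68.4, 58.0 and 62.0 CPM in G-line HET, 73.8 CPM in A-line HOM, 74.0, 77.4 and 69.5 CPM in A-line HET and 64.5, 56.9 and 64.5 CPM in WT. Only the A-line groups lay wholly above WT. The log2 difference from WT was 0.19 ± 0.11 in G-line HOM (adjusted p = 0.251), 0.02 ± 0.11 in G-line HET (adjusted p = 0.948) and 0.25 ± 0.12 in A-line HET (adjusted p = 0.222). Without G-line HOM library 3 the G-line HOM value was 0.31 and passed the threshold (adjusted p = 0.0346). The ratio of Gata6 to Gata4 counts was 0.543 to 0.667 in G-line HOM, 0.469 to 0.612 in G-line HET, 0.621 in A-line HOM, 0.411 to 0.658 in A-line HET and 0.441 to 0.549 in WT, so the groups overlapped.

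Among the MEF2 genes, Mef2d was lower in G-line HOM than in WT, and Mef2a and Mef2c were not called in any comparison. Mef2d stood at 68.9, 55.1 and 62.1 CPM in G-line HOM, 73.8, 73.3 and 63.6 CPM in G-line HET, 82.4 CPM in A-line HOM, 81.2, 59.9 and 73.6 CPM in A-line HET and 85.5, 72.2 and 83.7 CPM in WT. All G-line HOM libraries lay below the lowest WT library, and the other groups overlapped with WT. The G-line HOM mean of 62.0 ± 6.90 CPM was 0.772 times the WT mean of 80.5 ± 7.24 CPM, a log2 difference of -0.37 ± 0.12 (adjusted p = 0.0313). The call was lost without G-line HOM library 2 (adjusted p = 0.138) or 3 (0.0580), without WT library 1 (0.112) or 3 (0.101), and with the shared pair as A-line HOM (0.109) or dropped (0.0923). In GENCODE M21 Mef2d shares 531 exon bases, 8.87% of its length, with the opposite-strand gene 1700113A16Rik. Mef2a shares 302 bases (2.06%) with the opposite-strand gene Lysmd4. Since use of strand in counting is not given, reads of these neighbours may be included.

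Mef2a, the most abundant of the 3, stood at 203, 217 and 216 CPM in G-line HOM, 214, 214 and 216 CPM in G-line HET, 221 CPM in A-line HOM, 222, 225 and 225 CPM in A-line HET and 244, 232 and 236 CPM in WT. Each mutant library lay below all WT libraries, yet the difference was small: log2 -0.16 ± 0.07 in G-line HOM (adjusted p = 0.119), -0.14 ± 0.07 in G-line HET (adjusted p = 0.262) and -0.08 ± 0.07 in A-line HET (adjusted p = 0.556). DESeq2 called it in G-line HOM (adjusted p = 0.0470). Mef2c, which also marks endothelium, stood at 189, 217 and 246 CPM in G-line HOM, 173, 198 and 201 CPM in G-line HET, 169 CPM in A-line HOM, 170.4, 225 and 185 CPM in A-line HET and 184, 179.8 and 205 CPM in WT, and these ranges overlapped except for the A-line HOM library, which was lowest. Its log2 difference from WT in G-line HOM was 0.19 ± 0.12 (adjusted p = 0.261).

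As a share of the summed MEF2 level per kb, Mef2d took 24.3 to 30.8% in G-line HOM, 27.9 to 32.5% in G-line HET, 34.8% in A-line HOM, 25.2 to 34.3% in A-line HET and 30.7 to 33.5% in WT. Mef2c took 32.1 to 38.4% in G-line HOM, against 27.5 to 30.3% in WT, with no overlap. Mef2a took 36.2 to 39.1% in G-line HOM, against 37.3 to 40.2% in WT, with overlap. The shares were not tested.

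**Figure D3:**
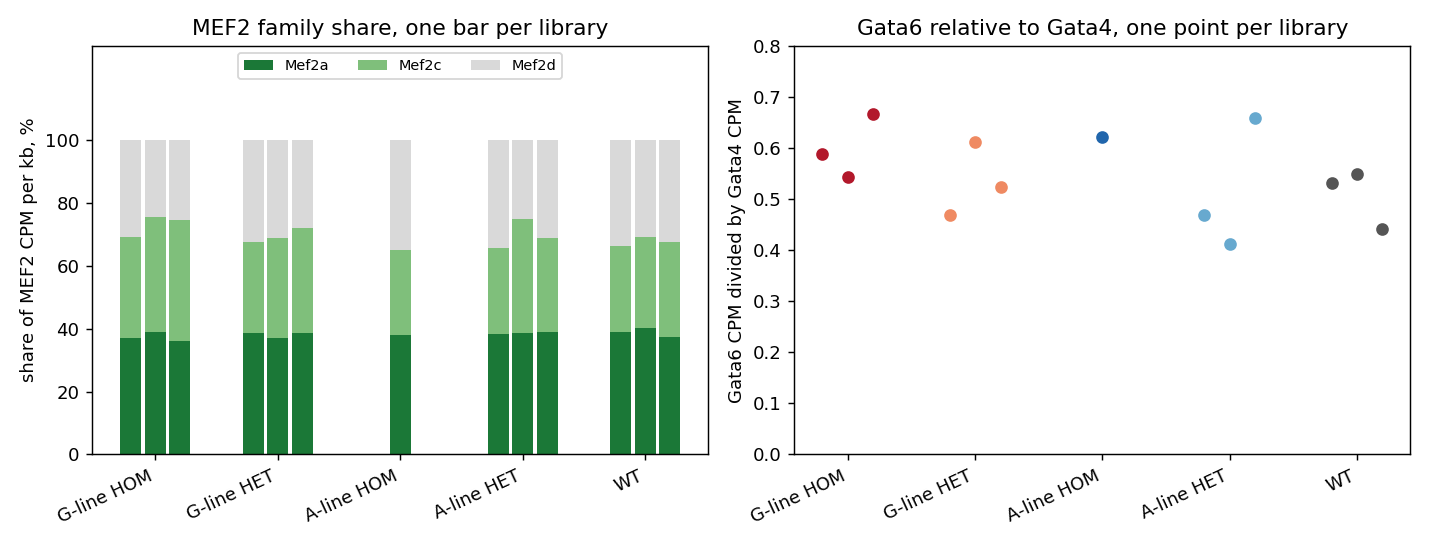
Left, stacked shares of Mef2a, Mef2c and Mef2d in their summed CPM per kb (y axis, percent), 1 bar per library by group. Right, Gata6 CPM divided by Gata4 CPM (y axis, from 0), 1 point per library. The Mef2d share is lowest in G-line HOM library 2 and A-line HET library 2 and highest in the A-line HOM library, and the Gata6 to Gata4 ratio overlaps between groups.

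The window before the Mef2d start (GRCm38.p6, chr3:88142122-88142371, plus strand) is shown beside that of Tbx20 because Mef2d was called in the opposite direction.
Mef2d: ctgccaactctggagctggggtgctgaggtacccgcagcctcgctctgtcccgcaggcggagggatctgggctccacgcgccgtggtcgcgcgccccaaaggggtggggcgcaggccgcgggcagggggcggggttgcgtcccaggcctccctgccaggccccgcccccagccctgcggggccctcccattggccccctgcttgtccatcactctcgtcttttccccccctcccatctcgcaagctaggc
It too holds none of the 5 motifs, at a GC content of 73.2%. The windows of Mef2a and Irx4 hold none either, so this does not set Tbx20 and Mef2d apart from genes that were not called. The called genes Tbx5 and Gata6 had no window to compare.

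Hand2, Nkx2-5 and Irx4 were not called in any of the 6 comparisons. Hand2, a ventricular and fibroblast helix-loop-helix factor, stood at 10.6, 10.5 and 8.08 CPM in G-line HOM, 13.7, 10.8 and 12.02 CPM in G-line HET, 11.4 CPM in A-line HOM, 8.98, 6.06 and 12.3 CPM in A-line HET and 6.57, 12.2 and 9.01 CPM in WT. The groups overlapped with WT. Its log2 difference in G-line HOM was 0.07 ± 0.25 (adjusted p = 0.869), so the error was larger than the value. The antisense gene Hand2os1 shares 461 exon bases with Hand2, 19.6% of its length in GENCODE M21. It lay at 31.3 to 41.9 CPM in all libraries and was not called.

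The Hand2 window (GRCm38.p6, chr8:57320733-57320982, plus strand) is shown as an example of a window with matches to 3 of the 5 motifs.
Hand2: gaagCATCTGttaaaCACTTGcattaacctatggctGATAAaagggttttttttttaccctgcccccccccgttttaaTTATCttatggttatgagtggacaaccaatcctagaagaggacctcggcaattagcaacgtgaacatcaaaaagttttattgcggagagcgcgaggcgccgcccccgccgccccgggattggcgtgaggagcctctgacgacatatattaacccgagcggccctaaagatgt
From 5′ to 3′ the capitals mark an E-box, a second E-box that contains the NKX2-5 letters on the minus strand, and then 2 GATA matches, the second of them on the minus strand. Of the 10 members, 7 had an entry in the promoter table, with 9 starts, and Gata4, Gata6 and Tbx5 had none. A match is a description of letters and not of a bound site.

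Nkx2-5, the cardiac homeodomain activator, stood at 5.04, 4.33 and 2.86 CPM in G-line HOM, 9.76, 4.53 and 5.57 CPM in G-line HET, 6.57 CPM in A-line HOM, 4.73, 4.43 and 5.05 CPM in A-line HET and 3.52, 5.03 and 4.71 CPM in WT. One G-line HET library was far above the rest. The log2 difference from WT was -0.11 ± 0.28 in G-line HOM (adjusted p = 0.810) and 0.58 ± 0.27 in G-line HET (adjusted p = 0.221). Irx4 stood at 23.0, 20.5 and 17.5 CPM in G-line HOM, 21.6, 16.9 and 17.9 CPM in G-line HET, 22.7 CPM in A-line HOM, 15.9, 23.1 and 18.3 CPM in A-line HET and 18.5, 12.8 and 16.6 CPM in WT. Each group overlapped with WT apart from the single A-line HOM library, and the log2 difference in G-line HOM was 0.35 ± 0.16 (adjusted p = 0.132).

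Counted together, 4 of the 10 genes were called in G-line HOM against WT, 2 higher (Tbx20 and Gata6) and 2 lower (Tbx5 and Mef2d), where 26.4% of all tested genes were called, 13.1% higher and 13.3% lower. The libraries of the groups did not overlap for 5 of the 10, against 41.7% of all genes, a share near the background. In G-line HET 2 of the 10 were called, 1 in each direction, against a background of 7.52% (3.97% higher, 3.54% lower), and 3 of the 10 did not overlap against 31.5%. In A-line HET 2 of the 10 were called, 1 in each direction, against 7.96% (3.99% higher, 3.97% lower), and 4 of the 10 did not overlap against 26.1%. In the A-line HOM library none was called by edgeR or by DESeq2 against a background of 4.68%, although 4 had an unadjusted p under 0.05, and 8 of the 10 lay outside the WT range against 67.8% of all genes. The median log2 difference of the 10 genes was 0.13 in G-line HOM, 0.05 in G-line HET, 0.27 in A-line HOM and 0.06 in A-line HET, against medians of 0.0070, -0.01, -0.01 and 0.02 over all tested genes.

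**Figure D4:**
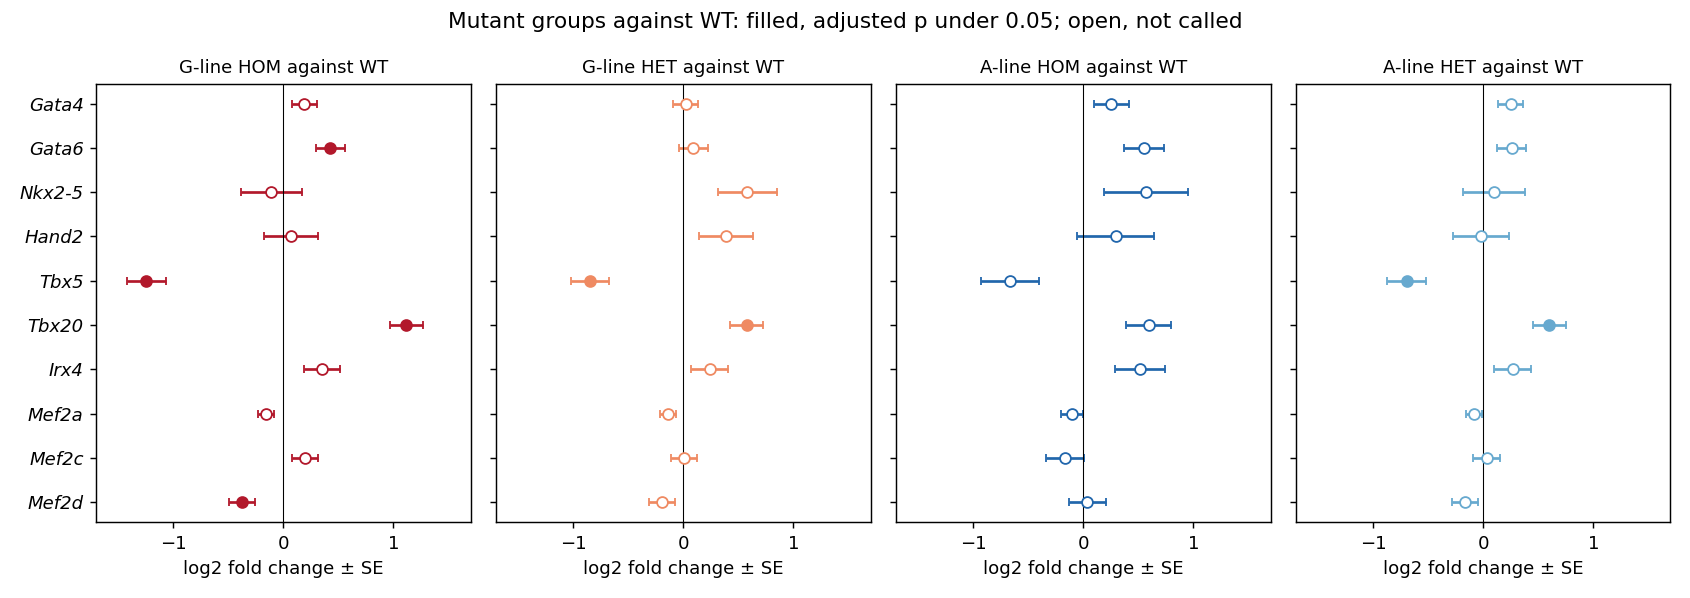
Log2 fold change from WT (x axis) with its SE for each gene (y axis) in the 4 mutant groups, 1 panel per group; filled points have an adjusted p under 0.05 in the edgeR quasi-likelihood test, and the A-line HOM panel rests on 1 library. Tbx5 lies left and Tbx20 right of 0 in every panel, at -1.24 and 1.12 in G-line HOM.

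Set directly against each other, 2 copies and 1 copy of S639G differed in 1 of the 10 genes, which was higher, where 14.6% of all genes were called (6.22% higher), and 4 of the 10 did not overlap against 35.0%. Tbx20 was 1.46 times as high in G-line HOM (334 ± 65.8 CPM) as in G-line HET (229 ± 32.6 CPM), a log2 difference of 0.54 ± 0.15 (adjusted p = 0.0284). This call was lost without any 1 of the 3 G-line HET libraries (adjusted p 0.0502 to 0.111), without G-line HOM library 1 (0.0996) or 2 (0.0798), when only these 2 groups were fitted (0.0518), without the Myl7-high (0.0890) or the Arntl-high libraries (0.113), and with the shared pair as A-line HOM (0.111) or under both names (0.0772). Tbx5 was at 8.91 ± 0.74 CPM in G-line HOM and 11.7 ± 0.81 CPM in G-line HET with no overlap, a log2 difference of -0.40 ± 0.18 that was not called (adjusted p = 0.154). Gata6 differed by 0.34 ± 0.13 (adjusted p = 0.0990) and Nkx2-5 by -0.69 ± 0.27 (adjusted p = 0.101), neither called.

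Between the 2 alleles at 1 copy, A-line HET against G-line HET, no member was called by edgeR or DESeq2 and none had an unadjusted p under 0.05, where 0.0284% of all genes were called. Tbx20 averaged 233 ± 32.2 CPM in A-line HET and 229 ± 32.6 CPM in G-line HET (log2 0.03 ± 0.15), and Tbx5 13.01 ± 3.05 CPM in A-line HET and 11.7 ± 0.81 CPM in G-line HET (log2 0.15 ± 0.18). The libraries of the 2 groups did not overlap for Gata4 and Mef2a, 2 of the 10 against 17.4% of all genes. Gata4 was higher in A-line HET by a log2 difference of 0.23 ± 0.11 (adjusted p = 0.3996). A p above the threshold does not show that the alleles act alike.

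The nearest patterns across the 13 libraries were sought among 8068 genes by Pearson's r of log2(CPM + 1), as a description of libraries that share their groups. Closest to Tbx20 were Cers2 (r = 0.99), Masp1 (0.96) and Cyth3 (0.96). Cers2 averaged 36.3 CPM in G-line HOM, 31.3 CPM in G-line HET, 32.1 CPM in A-line HOM, 32.6 CPM in A-line HET and 28.0 CPM in WT. Closest to Tbx5 were Abca3 (r = 0.94), Mapk10 (0.93) and Sik2 (0.92), and Abca3 averaged 16.4 CPM in G-line HOM and 24.9 CPM in WT. Closest to Gata6 were Nsd3 (0.93), Tnrc6c (0.91) and its antisense neighbour Gata6os (0.90), and closest to Mef2d were Baz2a (0.88), Rnf214 (0.86) and Patl1 (0.86).

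Of 19 relatives in the same families, 8 passed the filter, and 2 of the 8 were called in G-line HOM against WT, where 26.4% of all genes were called. Both calls were lost with the shared pair as A-line HOM (adjusted p = 0.325 for Tbx18 and 0.0576 for Irx1). Tbx18, a T-box factor of epicardium, pericytes and sinus node, rose to 12.9 ± 3.12 CPM in G-line HOM, against 7.90 ± 0.90 CPM in WT (log2 0.71 ± 0.22, adjusted p = 0.0261). Irx1 was lower at 0.559 ± 0.13 CPM in G-line HOM, against 1.35 ± 0.47 CPM in WT (log2 -1.28 ± 0.41, adjusted p = 0.0315). The T-box repressor Tbx3 had a log2 difference of 0.37 ± 0.21 (adjusted p = 0.219), and Irx3 of -0.18 ± 0.26 (adjusted p = 0.665). The Tbx18 call was lost without G-line HOM library 2 or WT library 2 or 3 (adjusted p 0.0639 to 0.139), without the Arntl-high libraries (0.0512), and with the shared pair dropped (0.331). The Irx1 call was lost without G-line HOM library 1 or 2 or WT library 1 or 3 (adjusted p 0.0660 to 0.142), and without the Myl7-high libraries (0.0635) or the Arntl-high libraries (0.123). No relative was called in G-line HET, A-line HET or A-line HOM against WT, and the median log2 difference of the 8 in G-line HOM was -0.16.

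Of 26 cofactors and regulators of these factors, all 26 passed the filter, and 3 rose and 4 fell in G-line HOM, where 13.1% of all genes rose and 13.3% fell, so the share called was near that of all genes. With the shared pair as A-line HOM 0 rose and 2 fell, and with it dropped 0 rose and 3 fell. Myocd, the coactivator of serum response factor, reached 218 ± 10.03 CPM in G-line HOM, against 148 ± 22.4 CPM in WT (log2 0.56 ± 0.10, adjusted p = 0.00118). It was also higher in G-line HET at 231 ± 14.0 CPM (log2 0.65 ± 0.10, adjusted p = 0.00187), in A-line HET at 231 ± 7.12 CPM (log2 0.65 ± 0.10, adjusted p = 0.00198) and in the A-line HOM library at 243 CPM (log2 0.72 ± 0.14, adjusted p = 0.00991). All 4 Myocd calls were lost with the pair as A-line HOM (adjusted p 0.404 to 0.991) or dropped (0.0729 to 0.134), and those of the 3 other mutant groups also with it under both names. Unlike Tbx20, its mean was not highest in G-line HOM. The E-protein Tcf12, a dimer partner of helix-loop-helix factors, was at 63.9 ± 0.76 CPM in G-line HOM and 50.9 ± 3.75 CPM in WT (log2 0.33 ± 0.09, adjusted p = 0.0109, and 0.0587 without WT library 1).

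The third gene to rise was the TBX5 coactivator Wwtr1 (TAZ), with a log2 difference of 0.34 ± 0.10 (adjusted p = 0.0217). The 4 that fell were Hopx (log2 -6.29 ± 0.33), a homeodomain protein that restrains serum response factor and lies downstream of NKX2-5, the NKX2-5 coactivator Camta2 (-0.50 ± 0.14), the muscle methyltransferase Smyd1 (-0.41 ± 0.11), itself a MEF2C target, and the Polycomb partner Jarid2 (-0.37 ± 0.12), with adjusted p of 2.86e-06, 0.0132, 0.0115 and 0.0270. The calls for Wwtr1 and Jarid2 were each lost without G-line HOM library 1 or 2 or WT library 1 or 3 (adjusted p 0.0595 to 0.0991 for Wwtr1 and 0.0670 to 0.140 for Jarid2). Both were also lost without the Arntl-high libraries (0.104 for Wwtr1 and 0.111 for Jarid2), and that of Wwtr1 without the Myl7-high libraries (0.118). The Smyd1 call was lost without WT library 1 or 3 (0.0524 to 0.0617) and without the Arntl-high libraries (0.0562), and the Camta2 call without G-line HOM library 2 (0.0599). Camk2d (log2 -0.02 ± 0.10, adjusted p = 0.915) and Tead1 (log2 -0.03 ± 0.12, adjusted p = 0.888) were not called.

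In the other groups only Myocd and Hopx of the 26 were called against WT. Of all genes 7.52% were called in G-line HET, 7.96% in A-line HET and 4.68% in A-line HOM. Between G-line HOM and G-line HET 1 of the 26 was higher and 4 were lower, where 14.6% of all genes were called. In G-line HOM against G-line HET, Hdac4, a class II histone deacetylase that represses MEF2 proteins, was lower at 53.3 ± 8.26 CPM in G-line HOM and 90.2 ± 6.39 CPM in G-line HET (log2 -0.76 ± 0.15, adjusted p = 0.00664), as were Srf (-0.42 ± 0.11, adjusted p = 0.0241), Camta2 (-0.57 ± 0.14, adjusted p = 0.0143) and Hopx (-1.65 ± 0.33, adjusted p = 0.0101), while Wwtr1 was higher (0.37 ± 0.10, adjusted p = 0.0281). The Hdac4 call held under all 25 alternatives. The Srf call was lost without G-line HOM library 2 or 3 or G-line HET library 1 or 2 (adjusted p 0.0515 to 0.107), the Camta2 call without G-line HOM library 2 or G-line HET library 1 (0.0649 to 0.0689), and the Wwtr1 call without G-line HOM library 1 or 2 or G-line HET library 2 or 3 (0.0904 to 0.101), without the Myl7-high (0.116) or the Arntl-high libraries (0.105). The Hopx call was lost with the shared pair as A-line HOM (0.434) or under both names (0.375). The median log2 difference of the 26 in G-line HOM against WT was -0.02.

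Of 24 genes known as targets of these factors in heart, 23 passed the filter, and 5 rose and 10 fell in G-line HOM, where 13.1% of all genes rose and 13.3% fell. Their median log2 difference was -0.29, against 0.0070 over all genes. The 5 were the stress-response genes Ankrd1 (log2 3.32 ± 0.20), Nppb (2.83 ± 0.24) and Nppa (3.85 ± 1.20), the small heat shock protein Hspb7 (0.47 ± 0.11) and the thick-filament protein Mybpc3 (0.44 ± 0.12). Nppa stood at 64.2, 1194 and 87.0 CPM in WT libraries 1, 2 and 3, of which library 2 alone held atrial transcripts. It stood at 4671 to 7881 CPM in G-line HOM. The Nppa call held without WT library 2 and without the Myl7-high libraries. It was lost in 17 of 25 alternatives, 11 of them with 1 library left out (adjusted p 0.0517 to 0.107). The Mybpc3 call was lost without G-line HOM library 2 or WT library 2 (0.0702 to 0.0848) and without the Myl7-high libraries (0.0811). The 10 that fell were led by the potassium channel Kcnd2 (-4.02 ± 0.32), Ckm, the muscle creatine kinase (-1.69 ± 0.19), Atp2a2, the calcium pump of the sarcoplasmic reticulum (-1.32 ± 0.17), Tnni3, cardiac troponin I (-1.07 ± 0.13), and Adora1, the A1 adenosine receptor (-0.99 ± 0.18).

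Atp2a2 is a textbook TBX5 target. It was at 5632 ± 1066 CPM in G-line HOM, against 14093 ± 1032 CPM in WT (adjusted p = 0.000102). It was also lower in A-line HET at 7719 ± 2045 CPM (log2 -0.87 ± 0.17, adjusted p = 0.00663) and at 7226 CPM in the A-line HOM library (log2 -0.96 ± 0.25, adjusted p = 0.0450), though the last call was lost in 13 of 24 alternatives, 7 of them with 1 library left out (0.0537 to 0.108), and the A-line HET call under all 3 choices for the shared pair (0.0788 to 0.348). In G-line HET, where Tbx5 was called, Atp2a2 was not called against WT, which does not show an unchanged level. Atp2a2 was lower in G-line HOM than in G-line HET (-0.77, adjusted p = 0.0104, and 0.0753 with the shared pair as A-line HOM). The G-line HOM difference was larger against WT (log2 -1.32), so the G-line HET estimate for Atp2a2 also lay below WT. The gap junction genes did not move together. Gja1 was lower in G-line HOM (-0.47 ± 0.12, adjusted p = 0.00920, and 0.0557 without WT library 1). Gja1 fell further in G-line HET (-0.93, adjusted p = 0.000381), a call that held under all 25 alternatives. It was higher in G-line HOM than in G-line HET (0.46, adjusted p = 0.0198), a call lost without any 1 G-line HET library or G-line HOM library 2. Gja5, also a TBX5 target, had a log2 difference of 0.10 ± 0.44 in G-line HOM (adjusted p = 0.896).

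The remaining targets that fell were Myh6 (-0.54 ± 0.12), Corin, the protease that processes natriuretic peptides (-0.59 ± 0.13), phospholamban Pln (-0.41 ± 0.12) and the calcium release channel Ryr2 (-0.28 ± 0.10). The Ryr2 call was lost in 15 of 25 alternatives, with an adjusted p of 0.0543 to 0.174 in the 9 that left out 1 library. The Pln call was lost without G-line HOM library 1 or 2 or WT library 1 or 3 (0.0519 to 0.106) and without the Arntl-high libraries (0.114). Myl2, the ventricular light chain (-0.38 ± 0.14, adjusted p = 0.0609), and Actc1, cardiac alpha actin (-0.11 ± 0.14, adjusted p = 0.604), were not called. Without the Myl7-high libraries 6 targets rose and 12 fell, and without the Arntl-high libraries 4 rose and 8 fell. With the shared pair as A-line HOM 0 rose and 6 fell, so all 5 rises were lost, with it dropped 3 rose and 6 fell, and with it under both names 3 rose and 9 fell.

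In G-line HET 4 targets rose and 2 fell against WT, where 7.52% of all genes were called. In A-line HET 3 rose and 4 fell, against 7.96% of all genes, and in A-line HOM 2 rose and 2 fell, against 4.68%. With the shared pair as A-line HOM 1 target, a lower one, was called in G-line HET, and all calls of both A-line groups were lost. Ankrd1, Nppb and Kcnd2 were called against WT in each of them, with log2 differences for Kcnd2 of -2.36 ± 0.29 in G-line HET, -1.95 ± 0.45 in A-line HOM and -1.67 ± 0.29 in A-line HET. The Kcnd2 call for A-line HOM was lost without G-line HOM library 1, G-line HET library 2 or any 1 WT library (adjusted p 0.0534 to 0.0814), and without the Myl7-high (0.0864) or the Arntl-high libraries (0.0707). In A-line HET the calls for Kcnd2 (0.0897) and Nppb (0.0701) were lost without the Myl7-high libraries. Between G-line HOM and G-line HET 3 targets were higher and 8 lower, where 14.6% of all genes were called, among them Ckm (-1.57 ± 0.19, adjusted p = 0.00150) and Adora1 (-0.99 ± 0.18, adjusted p = 0.00426), which held under all 25 alternatives. No target was called between A-line HET and G-line HET.

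**Figure D5:**
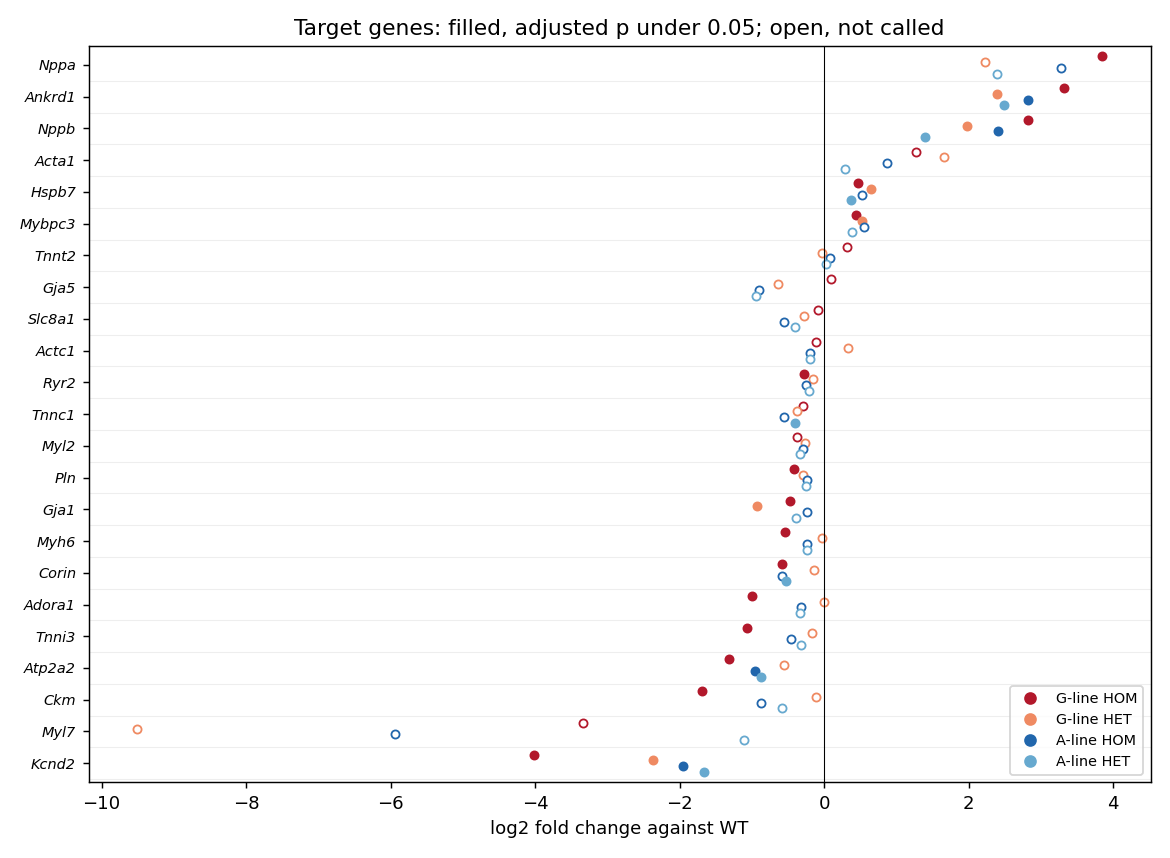
Log2 fold change from WT (x axis) of the 23 target genes that passed the filter (y axis) in the 4 mutant groups; filled points have an adjusted p under 0.05 and A-line HOM is 1 library. Ankrd1 and Nppb lie to the right and Kcnd2 to the left of 0 in all 4 groups, and Ckm, Tnni3 and Adora1 are filled for G-line HOM alone; Myl7, at 174.7 CPM on average in WT through 1 library, is open throughout.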

How the data were processed

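The authors deposited raw read counts per gene symbol, in 3 tables for the G-line, the A-line and WT, and these whole numbers were used as deposited. Per the submitters' processing notes, the tools named are bcl2fastq 2.20.0.422, Trimmomatic 0.39 and STAR 2.7.4a, with the GRCm39 build; per the labels' protocols, RNA was extracted with TRIzol, treated with DNase I and made into libraries with a TruSeq total RNA kit. The counter, its annotation and its use of strand were not stated in these sources.

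One edgeR 4.0.16 fit (R 4.3.3, TMM factors, robust quasi-likelihood test) covered the 13 distinct libraries with a mean per group, 8 residual degrees of freedom and a biological coefficient of variation of 17.1%. It kept 17588 genes that reached 0.422 CPM, or 10 counts in the median library, in at least 3 libraries and 15 counts in all. P-values were adjusted by Benjamini-Hochberg over these genes within each of 6 comparisons, and called at 0.05. Where A-line HOM enters with its 1 library, the error comes from the other groups. CPM were computed from the deposited counts with TMM factors, and lengths per kb are merged GENCODE M21 exons (GRCm38). Promoter sequences are RefSeq's, on GRCm38.p6. The fit was tested on simulated counts.

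DESeq2 1.42.0, other scalings and filters, a replicate block, other uses of the shared pair and leaving out libraries were tried. Same-numbered libraries did not deviate together (correlations -0.31 to 0.21 over 18 pairs, 4 above 0.1), so the numbers do not pair them. The members, the lists of relatives, cofactors, targets and cell markers, the alternatives and the rule for named genes (all members and, of each list in G-line HOM against WT, the 3 called genes with the smallest adjusted p and up to 2 uncalled genes of highest CPM) were set with earlier results of these data known. Other list genes named were chosen after their values were seen. One gene of the target list is not reported here and is left out of its counts.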

Additional observations from a re-analysis of the deposited data

How the results depend on the processing

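Depth limits Nkx2-5 and Hand2 most, and the single A-line HOM library has no replicate. The choice of name for the shared pair moved the calls most: under 3 choices (pair named A-line HOM, pair dropped, pair under both names) the members called in G-line HOM against WT were 1, 2 and 3 in place of 4, and in G-line HET and in A-line HET against WT 0 in place of 2 in each case. Over all tested genes the 4640 calls in G-line HOM became 1151 and 2226 in the first and second of these. The 1322 calls in G-line HET became 5, 236 and 439 under the 3 choices, the 1400 in A-line HET became 0, 165 and 0, and the 823 in A-line HOM became 0, 102 and 0. The 2575 calls between G-line HOM and G-line HET became 1251 with the pair as A-line HOM, 1558 without the Myl7-high and 1531 without the Arntl-high libraries, and the 1400 in A-line HET became 651 and 834 without them. Fitting only the compared groups gave 2200 calls in G-line HET and 1440 in A-line HOM, and between A-line HET and G-line HET DESeq2 gave 218 in place of 5 and no filter beyond 1 count gave 69. With 1 library left out, the counts over all genes ran over 3284 to 4890 in G-line HOM, 515 to 1622 in G-line HET, 622 to 2038 in A-line HET and 398 to 1180 in A-line HOM, each against WT, 1168 to 3016 between G-line HOM and G-line HET, and 0 to 607 between A-line HET and G-line HET. The causes were not tested, apart from fewer libraries where some are left out.

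The replicate block left 1 member called in G-line HET (Tbx20 at log2 0.57, adjusted p = 0.0518, was lost) and 1 in A-line HET (Tbx5 at log2 -0.70, adjusted p = 0.0589, was lost), and 504 calls in A-line HOM over all genes. It changed no other member's call. Only 1 of 12 libraries correlated best with its own number, so the block is no measure of a weaker effect.

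Of the member calls, A-line HET against WT had 1 in place of 2 when only the compared groups were fitted, without the Myl7-high and without the Arntl-high libraries. A-line HOM against WT gained 2 with only the compared groups fitted and 1 without either set of libraries. G-line HOM against G-line HET fell to 0 with only these groups fitted, with the shared pair as A-line HOM or in both groups, and without the Myl7-high or the Arntl-high libraries. Leaving out 1 library gave 2 to 4 called members in G-line HOM, 1 to 2 in G-line HET, 0 to 2 in A-line HET and 0 to 1 in A-line HOM against WT, and 0 to 2 in G-line HOM against G-line HET.

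Among the recomputed member values 57 changed sign, all of them of members not called. In G-line HOM against WT, Nkx2-5 was 0.22 with the shared pair as A-line HOM and 0.22 with it left out, and Hand2 was -0.0038 without the Arntl-high libraries. In G-line HET against WT, Gata4 was -0.039 and -0.045 and Gata6 -0.041 and -0.046 with the pair as A-line HOM and left out, and without the Myl7-high libraries Gata4 was -0.040 and Mef2c -0.033. In A-line HET against WT, Hand2 was 0.48 and 0.47 with the pair as A-line HOM and left out, and 0.20 without the Arntl-high libraries, where Mef2c was -0.10. In A-line HOM against WT, Mef2d was -0.089 with the block, -0.11, -0.057 and -0.019 under the 3 choices for the pair and -0.035 without the Myl7-high libraries, and with the pair as A-line HOM Mef2c was 0.0020 and Irx4 -0.097. In G-line HOM against G-line HET, Mef2a was 0.020 without the Myl7-high and 0.018 without the Arntl-high libraries. In A-line HET against G-line HET with no filter beyond 1 count, Tbx20 was -0.014, Mef2c -0.013, Mef2d -0.011 and Irx4 -0.0093. There, Tbx5 was -0.040 and Tbx20 -0.081 without the Myl7-high libraries, and Mef2c was -0.10 and Irx4 -0.14 without the Arntl-high libraries.

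With 1 library left out, the sign changes spanned these ranges. Against WT in G-line HOM, Hand2 ran over -0.13 to 0.32 and Nkx2-5 over -0.30 to 0.086. In G-line HET, Gata4 ran over -0.047 to 0.073 and Mef2c over -0.034 to 0.072. In A-line HET, Mef2c ran over -0.093 to 0.11, Hand2 over -0.31 to 0.23 and Nkx2-5 over -0.040 to 0.20, and in A-line HOM Mef2d over -0.038 to 0.080. Mef2a ran over -0.034 to 0.019 in G-line HOM against G-line HET. In A-line HET against G-line HET, Mef2d ran over -0.072 to 0.14, Mef2c over -0.099 to 0.11, Irx4 over -0.13 to 0.14, Gata6 over -0.00015 to 0.28, Tbx5 over -0.041 to 0.31 and Tbx20 over -0.088 to 0.11.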
